A study of Homo sapiens with 12 samples.

Results

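The comparison described here set MKL-1 cells that had received 3 µM EPZ011989 for 12 days against cells that had received vehicle for 12 days. Its members are the 6 libraries that the sample titles place in these 2 groups, 3 per group, of 12 libraries in the series; the other 6 are the same treatment and vehicle at day 6. MKL-1 is 1 established line from a Merkel cell carcinoma, a neuroendocrine skin cancer, and it carries integrated Merkel cell polyomavirus, so both groups share that virus and that genetic background. EPZ011989 is a small molecule inhibitor of the histone methyltransferase EZH2, and the vehicle of both groups was 1% ethanol. Cells of both groups were split and given fresh medium with agent every 3 days. Polyadenylated RNA was sequenced. Whether the 3 libraries of a group came from separate cultures is not in the labels, and the p-values therefore cover only library-to-library spread, part or all of which may be technical.

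EZH2 carries the enzyme activity of PRC2, a Polycomb complex that methylates histone H3 at the lysine known as H3K27. Genes under this mark are mostly silent developmental regulators and genes of other lineages. Because the mark is diluted as cells divide once its writer is blocked, changes in transcripts commonly build up over several days.

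The 6 libraries held 16152117 to 20052434 estimated reads, and levels are given as CPM (read counts scaled to library size, with TMM factors). The first principal component held 61.2% of the variance of all 12 libraries, and the treated day 12 libraries lay at 94.7 to 100.1 on it against -58.4 to -51.6 for day 12 vehicle. Vehicle replicate 1 stood apart from the other day 12 vehicle libraries on the third component (-51.4 against -14.0 and 6.94). Counts without it are given for some lists, but counts of other lists moved too. For example, the number of lower respiratory chain genes went from 32 to 36. Keratins and transcription factors of Merkel cells were present in both groups, with ATOH1, the master factor of the lineage, at 565 to 621 CPM in vehicle and 585 to 630 CPM in treated libraries. Of 33 markers of fibroblasts, leukocytes, endothelium and keratinocytes, 13 had enough reads to be tested. Of these, DCN and COL1A1 of fibroblasts and VWF and PECAM1 of endothelium were called higher and CD79B, TEK and KRT15 lower. The highest group mean among the 13 was that of DCN (10.7 CPM in vehicle and 13.5 in treated cells), and the part of such cells in the results was not tested. In bulk RNA, fewer cells of a type and less RNA per cell cannot be told apart.

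Treatment for 12 days changed the level of 10049 of the 15016 genes that had enough reads to be tested (66.9%, edgeR adjusted p under 0.05). The called genes were split almost evenly, with 5057 higher (33.7%) and 4992 lower (33.2%) in treated cells. Scaled by library totals alone, 55.6% of the called genes were higher, after a shift of 0.07 in the median log2 fold change. Many of these changes were small, since 4002 called genes differed by less than 1.5-fold. Among changes of at least 2-fold the higher genes led, with 2466 higher (16.4%) and 1365 lower (9.09%). The gap widened with size, to 1242 against 326 at 4-fold and 370 against 25 at 16-fold. Shares of reads add up to the whole library, so a gain by some genes has to be met by losses of others. Genes at least 2-fold higher took 3.32 to 3.68% of the reads of a vehicle library and 12.6 to 13.1% of a treated library. Genes at least 2-fold lower took 11.9 to 12.2% and 4.35 to 4.61%. Both sets were chosen by their change in these same libraries, so the direction of these shares is fixed by the choice. The values describe only the size. Without vehicle replicate 1 the test called 9804 genes, of which 9327 were also called with it.

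The balance of directions differed with the level of a gene in vehicle cells. To keep the level independent of the comparison, genes were grouped by their mean CPM in the 3 day 6 vehicle libraries, which the day 12 fold change does not use. Of the 3041 genes tested at 1 to under 10 CPM, 913 were at least 2-fold higher (30%) and 267 lower (8.78%), with a median log2 fold change of 0.41. Of the 7350 genes at 10 to under 100 CPM, 555 were higher (7.55%) and 703 lower (9.56%), so the direction had turned, and the median was -0.07. Of the 2652 genes at 100 CPM and over, 73 were higher (2.75%) and 326 lower (12.3%), with a median of -0.25. CPM does not correct for transcript length. With the same limits in TPM, which does, the group at 100 and over holds a different set of genes, of which 31 were 2-fold higher. The size of that set is not given here, so 31 cannot be compared with 73 as a share. The group under 1 CPM has to be read apart, because only 1973 of its 10047 genes with a read passed the filter on low counts, and a gene can pass through the treated libraries alone. With every one of those genes kept, 1148 were called at least 2-fold higher and 117 lower. Precision also differed, the median standard error of a log2 fold change being 0.64 under 1 CPM, 0.26 at 1 to under 10, 0.089 at 10 to under 100 and 0.054 at 100 CPM and over.

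**Figure D1:**
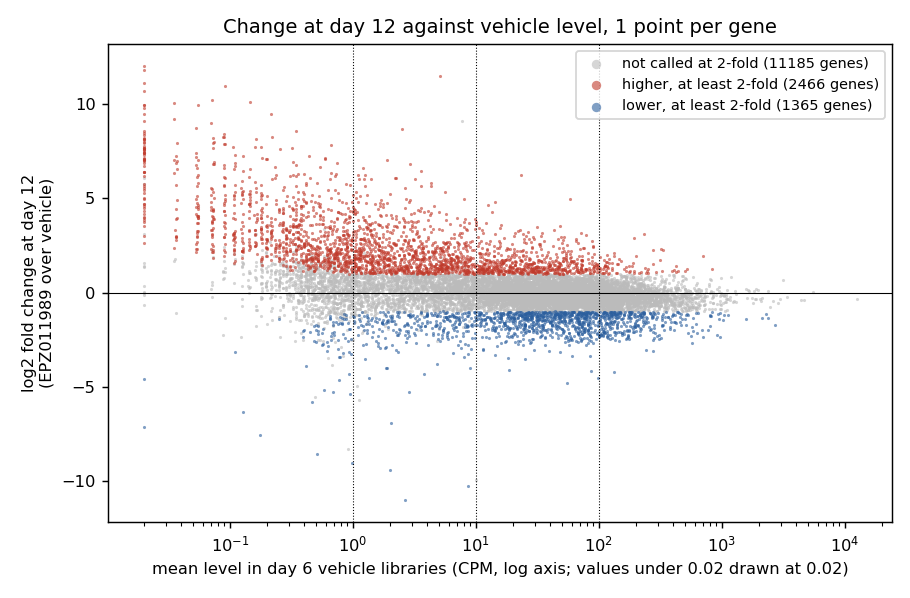
Log2 fold change at day 12 (EPZ011989 over vehicle) against the mean CPM of the 3 day 6 vehicle libraries on a log axis, 1 point per tested gene. Red points are the 2466 genes called at least 2-fold higher, blue points the 1365 called at least 2-fold lower, and dotted lines mark 1, 10 and 100 CPM; red points thin out to the right while blue points do not.

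**Figure D2:**
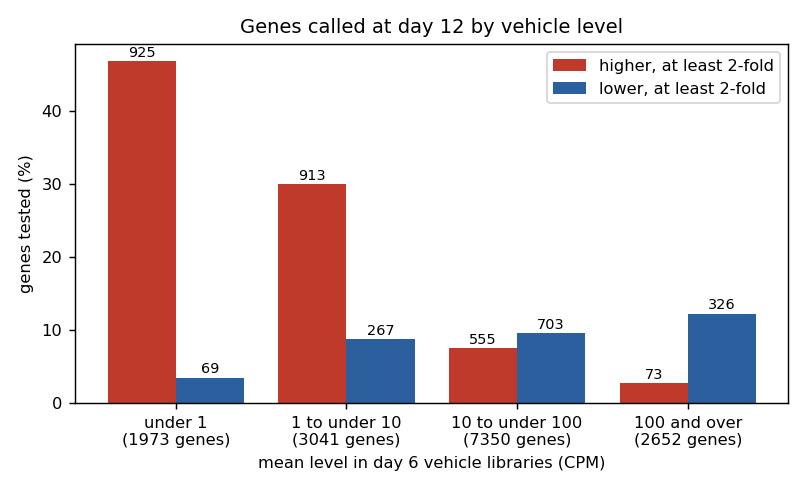
Share of tested genes called at least 2-fold higher (red) or lower (blue) at each vehicle level, with the number of genes above each bar. From 1 to under 10 CPM to 100 CPM and over, the red share goes from 30% to 2.75% and the blue share from 8.78% to 12.3%; the bars under 1 CPM hold only genes that passed the filter.

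The genes with the largest changes at each level came from different kinds of proteins. At 1 to under 10 CPM the largest rises included GRIN2A, a subunit of the NMDA glutamate receptor (chromosome 16, 9753404 to 10182754, GRCh38). It stood at 2.06, 1.79 and 1.93 CPM in the vehicle libraries and at 253, 245 and 252 CPM in the treated libraries, higher by 7.02 ± 0.18 on the log2 scale (± is the standard error here and below; edgeR adjusted p = 2.59e-13). LPAR3, a receptor for lysophosphatidic acid (chromosome 1, 84811602 to 84893213), went from 1.42, 1.35 and 1.22 CPM to 136, 128 and 131 CPM. All treated libraries of both genes were far above all vehicle libraries. The largest falls at that level were HMSD, with a ratio of summed reads of vehicle over treated of 42.7 (95% counting interval 16.3 to 159), CD79B of the B cell receptor, and MOCOS, a molybdenum cofactor sulfurase, with a ratio of 17.1 (95% counting interval 7.0 to 54.2).

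At 10 to under 100 CPM the largest rise was that of TNC, the matrix glycoprotein tenascin-C (chromosome 9, 115019578 to 115118257). Its vehicle libraries held 20.5, 20.2 and 28.2 CPM and its treated libraries 1778, 1579 and 1763 CPM (6.22 ± 0.10 log2, edgeR adjusted p = 6.65e-15). SLC30A2, a zinc exporter, went the other way, from 17.4, 16.3 and 18.2 CPM to 1.69, 1.66 and 1.18 CPM (-3.50 ± 0.14 log2). FBLN7, which encodes the matrix protein fibulin-7, fell by 3.49 on the log2 scale. The groups of these genes did not overlap.

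At 100 CPM and over, where 2-fold rises were rare, the largest were in KIF19, CNTN2 and ABCA5. KIF19 is a kinesin that shortens the microtubules of motile cilia (chromosome 17, 74326210 to 74355820). It went from 170, 191 and 201 CPM to 1621, 1534 and 1638 CPM (3.09 ± 0.06 log2, edgeR adjusted p = 1.64e-14). CNTN2, an axonal adhesion molecule, went from 176, 187 and 214 CPM to 1424, 1395 and 1492 CPM, and the lipid transporter ABCA5 from 415, 387 and 343 CPM to 1994, 1841 and 1871 CPM. Among the largest falls, NUSAP1, which bundles spindle microtubules (chromosome 15, 41332694 to 41381050), went from 392, 335 and 285 CPM to 37.9, 41.2 and 41.6 CPM (-3.07 ± 0.12 log2). ADRA2B, an adrenergic receptor (chromosome 2, 96112875 to 96116245), fell from 182, 183 and 209 CPM to 25.3, 25.6 and 19.1 CPM (-3.03 ± 0.09 log2). The genes with the largest changes at each level were taken only from those whose groups did not overlap, so their separation is part of the choice. Over all tested genes the treated libraries lay all above vehicle in 35.5% and all below in 33.6%.

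Under 1 CPM the changes are bounds or ratios of few reads. COL19A1, a collagen gene, was without reads in all 3 day 12 vehicle libraries and stood at 28.3, 31.7 and 27.3 CPM in the treated libraries, at least 157-fold higher with 3 reads per library as the floor. COL17A1, a hemidesmosome collagen of basal keratinocytes, was lower, with a ratio of vehicle over treated of 22.2 (95% counting interval 7.24 to 111). The pseudogenes RPS26P19 and DBF4P1 were the other 2 largest falls at this level, and both may share reads with their parent genes. These intervals cover counting error only.

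**Figure D3:**
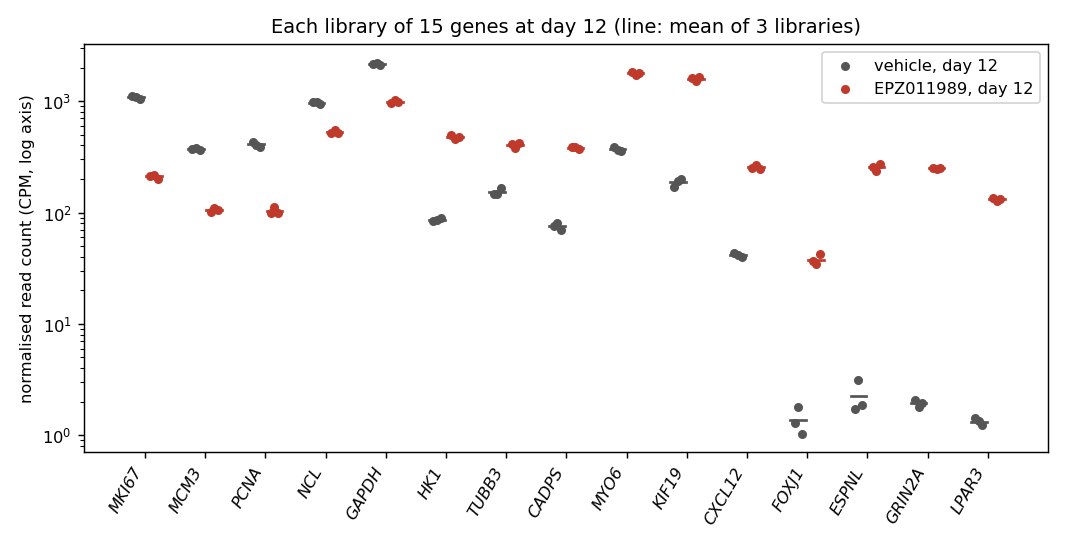
Normalised read count (CPM, log axis) of 15 genes in each day 12 library, grey for vehicle and red for EPZ011989, with a line at the mean of 3 libraries. For every gene drawn the 3 points of one group lie apart from the 3 of the other, and the span runs from MKI67 and GAPDH, which are lower in treated cells, to GRIN2A and LPAR3, which are higher.

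Genes of cell division fell at nearly every member. Over 6 lists (DNA replication, nucleotide synthesis, mitosis and kinetochore, homologous recombination and Fanconi, cyclins with CDKs and inhibitors, and RB with E2F and DREAM) 219 genes were tested, of which 204 fell, 165 of them at least 2-fold, and 9 rose. Their median log2 fold change was -1.82, against 0.016 over all genes tested. At 100 CPM and over, 77 of 98 such genes (78.6%) fell at least 2-fold, with a median of -1.91. Outside these lists 249 of 2554 genes at that level fell at least 2-fold (9.75%) and 73 rose (2.86%), with a median of -0.23, so the lean towards falls at this level was also present there.

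All 65 tested genes of mitosis and the kinetochore fell, 62 of them at least 2-fold, with a median log2 fold change of -2.15. BUB1B, a kinase of the spindle checkpoint, went from 181, 179 and 171 CPM to 29.3, 34.9 and 31.4 CPM (-2.47 ± 0.06 log2, edgeR adjusted p = 1.38e-13). NCAPD2, a condensin subunit, went from 247, 237 and 232 CPM to 68.3, 72.7 and 70.0 CPM, and CDCA8, the borealin of the chromosomal passenger complex, from 114, 109 and 118 CPM to 28.7, 28.0 and 27.5 CPM. Vehicle and treated libraries of these genes were separated by a wide gap. Genes named from a list, here and below, were mostly those of smallest p, so such separation is part of the choice. MKI67, which coats mitotic chromosomes, had the smallest p of this list (-2.35 ± 0.05 log2).

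Of 47 genes of DNA replication 46 fell, 39 of them at least 2-fold, with a median of -1.69. MCM3, part of the replicative helicase, went from 373, 379 and 368 CPM to 101, 109 and 106 CPM (-1.83 ± 0.04 log2, edgeR adjusted p = 4.11e-14). PCNA, the sliding clamp, went from 432, 408 and 387 CPM to 99.8, 112 and 99.1 CPM (-1.98 ± 0.06 log2), and the helicase genes MCM4 and MCM6 fell by 2.02 and 1.76 on the log2 scale. The treated libraries of each stayed far below the vehicle libraries. The 1 gene that did not pass, named after its value was seen, was ORC4 of the origin recognition complex (-0.06 ± 0.09 log2, edgeR adjusted p = 0.597). Of 25 genes of nucleotide synthesis 24 fell, among them RRM1 (-1.92) and TYMS (-1.90 log2), the sources of deoxynucleotides and thymidylate. UMPS of pyrimidine synthesis (-0.18 log2) did not pass.

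Repair by homologous recombination followed, with 35 of 38 genes lower and a median of -1.58. FANCI, a component of the interstrand crosslink pathway, went from 320, 336 and 305 CPM to 65.8, 70.2 and 62.1 CPM (-2.28 ± 0.05 log2), and the helicase gene BLM fell by 2.58 on the log2 scale. MUS81 (0.47 ± 0.11) and FANCE (0.22 ± 0.09 log2), named after their values were seen, rose. FANCE's edgeR adjusted p was 0.0450, and without vehicle replicate 1 the list had 1 gene higher in place of 2.

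Regulators of the cycle were more mixed. Of 20 genes of the RB, E2F and DREAM group 16 fell and 2 rose, with a median of -0.79. FOXM1, an activator of mitotic genes, went from 149, 153 and 163 CPM to 26.6, 29.5 and 32.3 CPM (-2.40 ± 0.06 log2), and the activator E2F1 fell by 2.09 and the repressor E2F7 by 2.41 on the log2 scale. The retinoblastoma gene RB1 itself went from 166, 165 and 141 CPM to 98.8, 99.96 and 94.5 CPM (-0.69 ± 0.07 log2). The risers, named after their values were seen, were TFDP2 (0.59 log2), a partner of E2F proteins, and LIN37 (0.33 log2) of DREAM, whose count of 2 became 1 without vehicle replicate 1. Of 24 cyclins, CDKs and inhibitors 18 fell and 5 rose. CCNE2, a cyclin of S phase entry, fell from 153, 137 and 135 CPM to 21.9, 26.0 and 25.1 CPM. CDKN1C, the inhibitor p57 (chromosome 11, 2883213 to 2885773), rose from 9.65, 13.5 and 15.6 CPM to 346, 366 and 389 CPM (4.83 ± 0.12 log2, edgeR adjusted p = 1.84e-13), and CDKN1A, the inhibitor p21, from 48.9, 52.9 and 50 CPM to 188, 180 and 194 CPM (1.88 ± 0.05 log2). The other 3 risers, named after their values were seen, were CDK6 (3.52), CCND1 (2.14) and CDC25B (0.15 log2), which promote the cycle. CCND1 stood under 1 CPM in day 6 vehicle, where a gene can pass the filter through treated libraries alone. At 1 CPM or more 4 of 23 genes of this list rose.

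Promoters of some of these genes carry motifs known from the periodic transcription of the cycle. DREAM binds the cell cycle genes homology region (CHR), whose core is TTTGAA, and E2F factors bind sites whose cores were searched here as TTTGGCGC, TTTCGCGC and TTTCCCGC, each on both strands. The windows, taken from RefSeq on GRCh38.p14, run from 250 bases before to 50 after a gene's first listed start, and the sequences below are stretches of at most 66 bases around a match in the genes of smallest p of the mitosis and replication lists and in NUSAP1. These genes were chosen for print after their values were seen, to show the 2 motifs. They are written in the direction of transcription with the matches in capitals, CHR for the first 5 genes and E2F for the last 3.
MKI67 (chr10:128126417-128126482, minus strand): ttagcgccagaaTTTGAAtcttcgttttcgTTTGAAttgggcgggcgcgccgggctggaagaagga
NCAPD2 (chr12:6493927-6493992, plus strand): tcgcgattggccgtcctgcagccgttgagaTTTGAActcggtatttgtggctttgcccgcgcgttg
BUB1B (chr15:40161016-40161081, plus strand): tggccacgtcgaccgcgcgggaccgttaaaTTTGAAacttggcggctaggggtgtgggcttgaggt
CDCA8 (chr1:37692463-37692528, plus strand): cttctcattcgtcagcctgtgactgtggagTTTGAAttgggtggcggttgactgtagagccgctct
NUSAP1 (chr15:41332844-41332909, plus strand): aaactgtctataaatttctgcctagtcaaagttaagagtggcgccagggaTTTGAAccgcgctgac
MCM3 (chr6:52284714-52284779, minus strand): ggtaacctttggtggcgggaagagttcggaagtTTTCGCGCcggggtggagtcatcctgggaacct
MCM6 (chr2:135876494-135876559, minus strand): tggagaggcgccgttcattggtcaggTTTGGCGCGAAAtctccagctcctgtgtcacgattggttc
PCNA (chr20:5126646-5126711, minus strand): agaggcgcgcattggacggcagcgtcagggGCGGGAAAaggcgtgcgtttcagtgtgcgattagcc

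Counted from the start, the CHR core lay at -23 in both BUB1B and CDCA8, at -47 and -29 in MKI67, at -145 in NCAPD2 and at 14 in NUSAP1, whose window also held an E2F core at -174. In MCM6 the core TTTGGCGC overlaps GCGCGAAA, which is the other-strand form of TTTCGCGC, and the pair occurred at 2 places in the window. The window of MYBL2 held none of these letters.

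The share of promoters with each motif differed between the lists. Of 13617 protein-coding tested genes outside chromosome 8, 11243 (82.6%) had a window, of which 9.67% held a CHR core and 4.46% an E2F core. Among the 1026 windows of genes at least 2-fold lower, 17.2% held CHR and 10.0% E2F, and within 50 bases of the start the CHR share was 9.65% against 2.73% of all windows. At 100 CPM and over the shares of such genes were 22.4% and 17.3%, against 9.76% and 6.56% of all windows at that level. Of the 55 windows of mitosis genes 37 held CHR (67.3%), 29 of them within 50 bases of the start, and 6 held E2F (10.9%). Of the 41 windows of replication genes 18 held E2F (43.9%) and 1 held CHR (2.44%). The other division lists lay nearer to all windows in CHR, with 9.52% CHR and 9.52% E2F among 21 windows of nucleotide synthesis and 9.38% CHR, none of it within 50 bases of the start, and 12.5% E2F among 32 of homologous recombination and Fanconi. Of the 16 windows of the RB, E2F and DREAM list 3 held CHR and 5 held E2F. With the 6 division lists left out, 14.8% of the 888 remaining windows of 2-fold lower genes held CHR and 8.11% E2F. At 10 to under 100 CPM genes at least 2-fold higher had 8.16% CHR and 2.95% E2F among 441 windows. For the higher genes as a whole only 77.1% had a window, so no share is given for them. The lists that define these windows were chosen for cell division, and a match is a description of letters, not of binding.

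**Figure D4:**
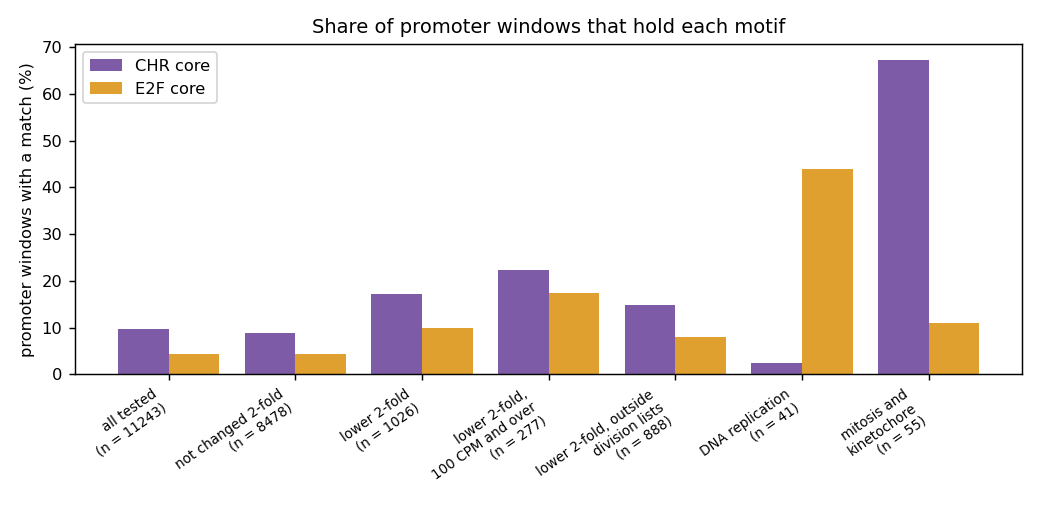
Percent of promoter windows that hold a CHR core (purple) or an E2F core (yellow), by group, with the number of windows under each name. The CHR bar of mitosis genes stands at 67.3% and the E2F bar of replication genes at 43.9%, against 9.67% and 4.46% over all tested genes.

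Most classes of growth and housekeeping genes held more lower than higher genes, by smaller amounts. Many of their members are strongly expressed, and over all genes at 100 CPM and over 59.9% were lower and 21.8% higher, with a median of -0.25. Of 40 ribosome biogenesis genes 32 fell and 2 rose, with a median of -0.50 log2 and 1 gene past 2-fold. NCL, the nucleolar protein nucleolin, went from 978, 989 and 947 CPM to 515, 549 and 520 CPM (-0.88 ± 0.04 log2, edgeR adjusted p = 6.73e-11). The risers, named after their values were seen, were RRP12 (0.26) and POLR1C (0.30 log2), and without vehicle replicate 1 there were 4. Of 57 splicing factors 47 fell and 3 rose (median -0.49), with HNRNPF at -0.97 and SRSF2 at -0.87 log2. Of 36 proteasome subunits 24 fell and 2 rose (median -0.28), of 77 mitochondrial ribosomal proteins 46 fell and 5 rose (median -0.29), and of 62 initiation factors and tRNA synthetases 39 fell and 10 rose (median -0.26). Of 78 respiratory chain genes 32 fell, 8 rose and 38 were not called (median -0.18). At 100 CPM and over 86.0% of splicing factors and all 13 ribosome biogenesis genes were lower, while the proteasome (68.2%) and the respiratory chain (59.3%) lay nearer the share of all genes there. Of 81 cytosolic ribosomal proteins 33 fell, 12 rose and 36 were not called, and at 100 CPM and over 41.9% were lower, under the share of all genes. RPL3 of the large subunit rose from 966, 991 and 969 CPM to 1692, 1680 and 1691 CPM (0.79 ± 0.03 log2), while RPSA of the small subunit fell by 0.59 on the log2 scale. Many ribosomal protein genes have near-identical pseudogene copies that can share their reads.

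Of 20 glycolysis genes 14 fell and 3 rose. GAPDH went from 2170, 2223 and 2132 CPM to 966, 1017 and 977 CPM (-1.14 ± 0.03 log2, edgeR adjusted p = 3.90e-13), PKM fell by 1.16 and ENO1 by 1.09 on the log2 scale. HK1, the hexokinase of the first step, rose from 83.7, 86.0 and 88.9 CPM to 501, 453 and 475 CPM (2.47 ± 0.05 log2, edgeR adjusted p = 2.77e-14). The other risers, named after their values were seen, were PFKM (0.97), the muscle form of phosphofructokinase, and the lactate exporter SLC16A3 (1.83 log2). HK1 thus moved against most of its pathway. Of 23 genes of cholesterol synthesis and uptake 16 fell, among them INSIG1 (-1.51), a sensor of the pathway, and the enzyme gene SQLE (-1.32 log2). The 1 riser, named after its value was seen, was TM7SF2 (0.93 log2), a sterol reductase, and without vehicle replicate 1 there were 2. Serine synthesis was split, PHGDH of its first step falling by 1.12 and PSAT1 of its second step rising by 2.41 on the log2 scale. Of 13 mitochondrially encoded mRNAs 11 fell (median -0.34), for example MT-CYB (-0.46 ± 0.07 log2), and 1 rose, MT-ND1 (0.20 log2, named after its value was seen).

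Genes of sensory hair cells and of motile cilia formed the groups with the highest medians. Because low genes can pass the filter through treated libraries alone, the counts here are for genes at 1 CPM or more in day 6 vehicle, of which 31.7% of 13043 were called higher, 37.7% lower, 11.8% at least 2-fold higher and 9.94% at least 2-fold lower. Of 27 hair cell and otic genes at that level 22 rose (17 at least 2-fold) and 3 fell, with a median of 1.57 log2 against -0.05 over all genes at that level. Another 8 were tested below 1 CPM and 12 could not be tested. ESPNL, an actin regulator of stereocilia (chromosome 2, 238100157 to 238133287), went from 1.74, 3.14 and 1.87 CPM to 255, 236 and 274 CPM (6.80 ± 0.15 log2, edgeR adjusted p = 9.28e-14). MYO6, a myosin at the base of the hair bundle (chromosome 6, 75749192 to 75919537), already stood at 388, 362 and 355 CPM in vehicle and reached 1835, 1715 and 1797 CPM (2.27 ± 0.04 log2). CIB2, a subunit of the transduction complex, rose by 6.03 and CDH23 of the tip link by 4.94 log2, and in each gene the treated libraries lay above all vehicle libraries. The 3 fallers, named after their values were seen, were COCH (-1.76), a secreted cochlear protein, MYO3A (-1.60), a myosin of stereocilia tips, and CALB2 (-1.68 log2), a calcium buffer.

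Of 27 motile cilium genes at 1 CPM or more, 22 rose, 20 of them at least 2-fold, and 1 fell, with a median of 1.57 log2. A further 21 were tested below 1 CPM and 6 could not be tested. FOXJ1, the master factor of motile cilia (chromosome 17, 76136333 to 76141299), went from 1.29, 1.79 and 1.03 CPM to 36.6, 34.2 and 42.1 CPM (4.76 ± 0.19 log2, edgeR adjusted p = 1.74e-11). CCDC40, an axonemal ruler protein, rose from 9.97, 9.31 and 11.7 CPM to 113, 103 and 116 CPM, and CFAP70 and CFAP43 by 4.25 and 3.38 log2. No vehicle library of these genes, which were chosen by smallest p, reached a treated one. MCIDAS, a regulator upstream of FOXJ1 that was named after its value was seen, was at -0.79 ± 0.34 log2 and did not pass (edgeR adjusted p = 0.0534). The 1 faller, also named after its value was seen, was the axonemal dynein DNAH3 (-2.78 log2), and without vehicle replicate 1 there were 2. At day 6 the same 27 genes had a median of 0.19 log2, and the 27 hair cell genes one of 0.61.

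**Figure D5:**
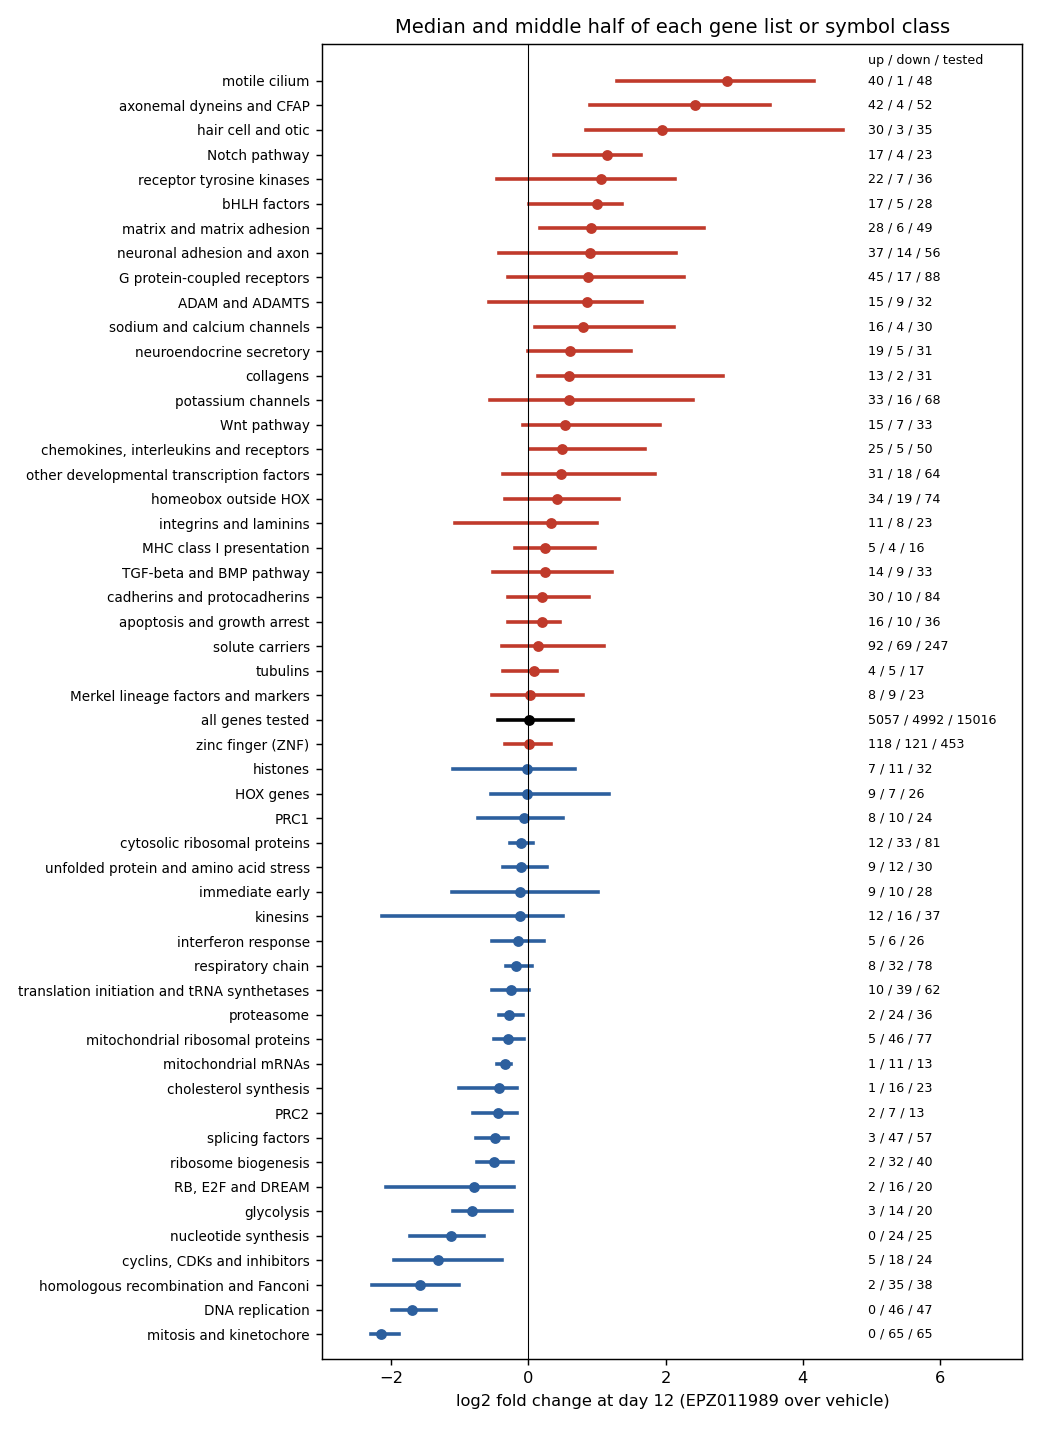
Median log2 fold change at day 12 (point) and range from lower to upper quartile of the members (bar) of each gene list or symbol class with at least 10 tested genes, with the numbers called higher, called lower and tested at the right. Mitosis (-2.15) and DNA replication (-1.69) lie lowest and motile cilium (2.89 over all 48 tested) highest; members under 1 CPM in vehicle, which can pass the filter through treated cells alone, are included here.

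Neuronal and secretory genes rose on balance but not as a block. Of 48 neuronal adhesion and axon genes at 1 CPM or more 31 rose (64.6%) and 14 fell (29.2%). Over all genes at 1 CPM or more 31.7% rose and 37.7% fell. NRCAM, an axonal adhesion molecule, went from 17.8, 18.7 and 17.7 CPM to 167, 153 and 147 CPM (3.10 ± 0.07 log2), and NRXN3, a presynaptic neurexin, rose by 2.19 log2. At 1 to under 10 CPM 11 of 13 genes were higher (84.6%) and 0 lower, against 42.3% and 14.4% of all genes there. At 10 to under 100 CPM 15 of 21 were higher (71.4%) and 5 lower (23.8%), against 30.8% and 39.4%. At 100 CPM and over 5 of 14 were higher (35.7%) and 9 lower (64.3%), against 21.8% and 59.9%. NEFL, a neurofilament subunit named after its value was seen, was among these 9 lower genes and fell by 0.97 on the log2 scale. Of the neuroendocrine secretory list, 29 genes stood at 1 CPM or more. Of these 17 rose (58.6%), 11 of them at least 2-fold, and 5 fell (17.2%). CADPS, a priming factor of dense-core vesicles, went from 76.4, 80.8 and 70.3 CPM to 387, 386 and 368 CPM (2.33 ± 0.05 log2, edgeR adjusted p = 5.73e-14). PCSK2, a prohormone convertase, rose by 1.71 and RAB3B, a vesicle GTPase, by 1.23 log2. The 5 fallers, named after their values were seen, were PCSK1 (-0.84), CALCB (-0.78), ENO2 (-0.33), SCG3 (-0.32) and CPE (-0.26 log2). Of 17 tubulins tested 4 rose (23.5%), 5 fell (29.4%) and 8 were not called, while over all genes tested 33.7% rose and 33.2% fell. The neuronal TUBB2B rose from 3.73, 5.61 and 5.09 CPM to 179, 202 and 201 CPM. TUBA1B fell from 2685, 2735 and 2577 CPM to 798, 845 and 810 CPM. Isotypes are similar in sequence, so some reads may be shared between them.

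Channels and receptors moved in both directions. At 1 CPM or more 21 of 48 potassium channels rose (43.8%) and 16 fell (33.3%), and 8 of 19 sodium and calcium channels rose (42.1%) and 4 fell (21.1%). All genes at that level rose in 31.7% and fell in 37.7%, but at 1 to under 10 CPM they rose in 42.3%. There 44.4% of potassium channels, 28.6% of sodium and calcium channels and 46.7% of G protein-coupled receptors rose. Among potassium channels KCNA2, a shaker-type channel of axons, went from 11.5, 10.5 and 14.6 CPM to 383, 386 and 366 CPM (4.96 ± 0.10 log2). The adhesion receptor gene ADGRL3 rose by 3.32 and the somatostatin receptor gene SSTR2 by 2.02 log2, while the receptor tyrosine kinase gene ERBB3 fell by 2.27. IGF1R, the receptor of insulin-like growth factor, rose by 1.2 log2. The chemokine gene CXCL12 went from 43.7, 41.9 and 40.2 CPM to 249, 269 and 245 CPM (2.60 ± 0.06 log2), and the interleukin receptor gene IL17RB from 219, 210 and 201 CPM to 65.0, 69.6 and 72.5 CPM. Of 55 G protein-coupled receptors at 1 CPM or more 25 rose (45.5%) and 17 fell (30.9%). Of 30 receptor tyrosine kinases 17 rose (56.7%) and 7 fell (23.3%), and without vehicle replicate 1 the counts were 18 and 4. The groups of each gene named here were apart in every library.

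Matrix genes at 1 CPM or more were higher in 20 of 33 (60.6%) and lower in 5 (15.2%). Over all genes at that level 31.7% were higher and 37.7% lower. VCAN, the proteoglycan versican, rose from 58.8, 59.6 and 58.2 CPM to 404, 398 and 369 CPM (2.73 ± 0.06 log2) and COL6A1 by 2.94 log2. In the class of integrins and laminins 9 of 18 genes at 1 CPM or more rose (50%) and 7 fell (38.9%). The share that fell lay near that of all genes. The laminin chain LAMA3 fell from 131, 122.2 and 134 CPM to 27.8, 24.7 and 24.6 CPM (-2.33 ± 0.07 log2), and LAMB1 fell by 1.55 on the log2 scale.

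In signalling pathways the Notch list stood out by its counts. Of 20 Notch genes at 1 CPM or more 15 rose (11 at least 2-fold) and 4 fell, with a median of 1.10 log2. The receptor NOTCH2 went from 52.6, 52.8 and 54.1 CPM to 160, 164 and 156 CPM (1.59 ± 0.05 log2, edgeR adjusted p = 9.42e-13). The ligand genes JAG2 and DLL3, the latter an inhibitory ligand of neuroendocrine tumours, rose by 1.14 and 1.07 and the coactivator MAML3 by 1.70 log2. The 4 fallers, named after their values were seen, were the DNA-binding mediator RBPJ (-0.62), the ligand DLL4 (-0.95), the feedback inhibitor NRARP (-0.62) and the glycosyltransferase LFNG (-0.53 log2). Of 20 Wnt genes 7 rose and 7 fell (35% each), and the TGF-beta and BMP list had 8 higher (30.8%) and 9 lower (34.6%) of 26. These lay near the shares of all genes at 1 CPM or more (31.7% and 37.7%). BMP7, a ligand, went from 146, 144 and 146 CPM to 26.1, 29.7 and 23.7 CPM (-2.45 ± 0.07 log2), and the BMP receptor gene BMPR1A fell by 1.51 on the log2 scale.

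Developmental transcription factors did not lean one way once low genes were set aside. Of 50 such genes outside the HOX clusters at 1 CPM or more 19 rose (38%) and 18 fell (36%). Among all genes there 31.7% rose and 37.7% fell. SIX4, a homeobox factor, rose by 2.74 log2. PAX9, of pharyngeal pouch and tooth development, fell from 30.8, 30.2 and 26.5 CPM to 6.24, 5.38 and 4.05 CPM. At 1 to under 10 CPM 12 of 21 rose (57.1%) and 3 fell (14.3%), against 42.3% and 14.4% of all genes there. At 10 to under 100 CPM 4 of 25 rose (16%) and 14 fell (56%), against 30.8% and 39.4% of all genes there. At 100 CPM and over 3 of 4 rose and 1 fell, against 21.8% and 59.9% of all genes there. Of 21 HOX genes at 1 CPM or more 5 rose and 7 fell, HOXC13 by 3.31 and HOXD9 by 1.65 log2 upwards and HOXA9 by -0.66 and HOXA10 by -0.74 log2.

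Genes of the target complex itself were measured next. EZH2 (chromosome 7, 148807383 to 148884321) went from 182, 178 and 164 CPM to 60.8, 61.9 and 57.2 CPM (-1.54 ± 0.05 log2). PHF19, an accessory subunit that reads methylated histone H3, fell by 1.53, the histone-binding subunit RBBP7 by 1.10 and the core subunit SUZ12 by 0.80 on the log2 scale. The core subunit EED was at -0.43 ± 0.16 log2, but its summed reads covered 0.578 of the authors' level. JARID2, a recruiting subunit, rose from 106, 100.5 and 109 CPM to 292, 269 and 282 CPM (1.42 ± 0.05 log2, edgeR adjusted p = 7.52e-12), and the paralogue EZH1 rose by 0.36 ± 0.08 log2, which missed the threshold in limma on the authors' table. In all 7 of 13 PRC2 genes fell and 2 rose, and without vehicle replicate 1 9 fell. The list of the partner complex PRC1 had 8 higher (33.3%) and 10 lower (41.7%) of 24. Among all genes at 1 CPM or more 31.7% were higher and 37.7% lower. In PRC1, CBX8 stood at 1.17, RYBP at 1.01 and KDM2B at -1.07 log2. The labels give no measure of the histone mark.

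Lineage and tumour genes of Merkel cell carcinoma moved in both directions. Of 22 lineage genes at 1 CPM or more 8 rose (36.4%) and 9 fell (40.9%), near the shares of all genes there (31.7% and 37.7%). POU4F1, a sensory neuron factor, went from 23.6, 28.6 and 26.2 CPM to 216, 222 and 236 CPM (3.10 ± 0.08 log2), and TUBB3, a neuronal tubulin, rose by 1.40 log2. KRT19, a simple epithelial keratin, went from 77.5, 79.8 and 73.1 CPM to 15.4, 19.2 and 18.8 CPM (-2.11 ± 0.08 log2). INSM1, a neuroendocrine factor, fell from 376, 429 and 496 CPM to 233, 289 and 306 CPM (-0.65 ± 0.10 log2). ATOH1 (0.05 ± 0.04 log2) did not pass (edgeR adjusted p = 0.336), but passed with library totals (0.12 log2) and without vehicle replicate 3 (0.10 log2). SOX2 (-0.19 ± 0.07 log2, edgeR adjusted p = 0.0279) and KRT20 (-0.39 ± 0.16 log2, edgeR adjusted p = 0.0490) were close to the threshold. KRT20 lost its call without vehicle replicate 1, its libraries overlapped between groups and its summed reads were 0.314 of the authors' level; SOX2 lost its call without treated replicate 1 or 3 or vehicle replicate 3. MYCL, the MYC family member amplified in some of these tumours, rose from 88.4, 93.2 and 106 CPM to 308, 283 and 302 CPM (1.63 ± 0.07 log2).

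Genes of apoptosis and growth arrest were split, with 16 of 36 higher and 10 lower. BCL2, the survival factor, fell from 183, 172 and 170 CPM to 41.9, 44.8 and 42.4 CPM (-2.02 ± 0.05 log2, edgeR adjusted p = 3.00e-13), and HRK, which opposes BCL2 proteins, rose from 7.34, 7.85 and 7.99 CPM to 100.4, 91.5 and 96.6 CPM (3.64 ± 0.11 log2). Both were separated in all libraries. Of 22 immediate early genes at 1 CPM or more 4 rose and 10 fell. FOS went from 49.9, 83.1 and 82.5 CPM to 9.26, 5.93 and 9.05 CPM (-3.16 ± 0.33 log2), and EGR1, the largest fall at 10 to under 100 CPM, from 73.8, 145 and 142 CPM to 6.91, 4.47 and 9.10 CPM. In both, vehicle replicate 1 was the lowest vehicle library and still above every treated one. NR4A2, a nuclear receptor of the same class, rose by 1.65 log2. Of 12 class I antigen presentation genes at 1 CPM or more 4 were higher and 4 lower (33.3% each). Of 22 interferon genes 3 were higher (13.6%) and 6 lower (27.3%). Over all genes at that level 31.7% were higher and 37.7% lower. The peptide transporter TAP1 rose from 3.02, 2.92 and 2.25 CPM to 8.65, 12.0 and 10.3 CPM (1.91 ± 0.21 log2), and the antiviral sensor OAS3 fell from 170, 175 and 175 CPM to 67.7, 77.8 and 62.1 CPM (-1.32 ± 0.06 log2).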

How the data were processed

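RNA of MKL-1 cells was sequenced as 12 polyA-selected libraries, of which 6 form the day 12 comparison. Per transcript, the authors deposited estimated counts (expected counts) and TPM. The submitters' processing notes name Salmon 1.2.0, FastQC and DESeq2. The authors also deposited 1 table with a normalized signal per gene; how it was scaled is not stated in the labels.

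Of 179883 transcripts 168219 (93.5%) were matched by identifier to GENCODE genes on GRCh38, and estimated counts were summed per gene and rounded. Unmatched transcripts held 3.08 to 3.58% of reads. Compared with the authors' gene level, 13500 of 15016 tested genes were within 0.8 to 1.25 times (called completely summed), 774 lower and 44 higher, and 698 had no entry. Genes were filtered by filterByExpr, scaled by TMM and tested two-sided by quasi-likelihood in edgeR 4.0.16 under R 4.3.3, in 1 fit of all 12 libraries, with Benjamini-Hochberg adjusted p under 0.05. Standard errors are the log2 fold change over the square root of F. On simulated counts of 15016 genes with 200 changed, the day 12 test recovered 80% of 2-fold and 99% of 4-fold changes, with 5 false calls. The changed genes were drawn from those at 1 CPM or more in day 12 vehicle. The simulation thus covers neither changes in lower genes nor a response as broad as that called here.

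The comparison, the 32 gene lists and the 23 symbol classes were chosen with earlier results of these data known. Patterns of 6 symbol classes were corrected after the files were read, because they also matched other genes. Named genes were completely summed ones: per vehicle level the 3 largest rises and falls at 1 CPM or more with no overlap between groups, up to 4 per list and 2 per class by smallest p, and a few by name. Counts at 1 CPM or more in day 6 vehicle were added after seeing the data. Promoter windows are from RefSeq; promoters were printed for other genes than first planned, and shares only for groups in which at least 80% of genes had a window.

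Alternatives were DESeq2 1.42.0 (size factors, test), library totals, other filters, day 12 libraries only, limma 3.58.1 on log2 of the authors' signal plus 1 or 5, adjusted p under 0.01, the replicate block, day 12 vehicle levels, TPM levels and completely summed genes (both chosen after seeing the data), and leaving out each library. The replicate numbers were not found to pair the libraries (correlations of deviations 0.021, -0.025 and 0.052), and no 2 libraries of a day 12 group agreed within sampling noise. Results of some genes that the rule names are not reported here.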

Additional observations from a re-analysis of the deposited data

Results flagged for a closer look

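The effect of treatment differed between the 2 days, by a test of the difference itself (interaction contrast in edgeR, adjusted p under 0.05), for 7169 of 15016 genes (47.7%). Of the 2466 genes called at least 2-fold higher at day 12, the effect was larger than at day 6 for 1452 (58.9%) and smaller for 20, with median log2 fold changes of 2.02 at day 12 and 0.80 at day 6. Of the 1365 genes called at least 2-fold lower, it was larger for 1195 (87.5%) and smaller for 1, with medians of -1.51 and -0.32. These genes were chosen by their day 12 values, which also enter the difference between the days. The choice favours larger effects at day 12, so these counts and medians only describe the genes. Of the 2466 higher genes 925 stood under 1 CPM in day 6 vehicle, where a gene can pass the filter through treated libraries alone. In the mitosis list 64 of 65 genes and in the replication list 46 of 47 were lower at day 12 than at day 6 in their treatment effect. Over all genes tested 3767 of 15016 were lower by the same test. Groups of 3 libraries are too small for a check of single libraries against their group.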

How the results depend on the processing

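Counts of calls, counts by vehicle level and counts of the leading lists stayed within 1.5 times of those reported in 597 recomputations and moved further in 29. Counts of lists held in 1548 recomputations and moved in 84. Results of named genes were the same in 2887, weaker in 47 and stronger in 2, and no named gene reversed. In the authors' table with a pseudocount of 1, 8249 of the 10049 calls were shared (82.1%), 8239 of them with the same sign. Genes called ranged from 9464 to 10086 when 1 day 12 library was left out. Falls of at least 2-fold under 1 CPM (69) became 24 at adjusted p under 0.01. They became 43 in the authors' table with a pseudocount of 5 and 117 without the low-count filter. With only day 12 libraries they were 22, and with the stricter filter 14. The 2-fold rises at 100 and over (73) became 31 with levels in TPM, which place a different set of genes there. Small list counts also moved: higher cholesterol genes (1) were 2 in the authors' table, with library totals and without the filter, and 1 to 2 with a library left out (2 without vehicle replicate 1 or treated replicate 3). Higher homologous recombination genes (2) were 1 with the DESeq2 test, at adjusted p under 0.01, in the authors' table, without the filter and with only day 12 libraries, and 1 to 2 with a library left out (1 without vehicle replicate 1 or 2 or treated replicate 2 or 3). Lower motile cilium genes (1) were 2 in the authors' table and 1 to 2 with a library left out (2 without vehicle replicate 1 or 3), and higher ribosome biogenesis genes (2) were 1 in the authors' table and 2 to 4 with a library left out (4 without vehicle replicate 1). The cause was not tested. With the replicate number as a block 10049 genes were called, 9905 of them the same, and of the named genes the block ended only the call of KRT20 (edgeR adjusted p = 0.0679).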
